A study of Mus musculus with 4 samples.

Results

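The levels of 10 plasma membrane amino acid transporter genes were followed in mouse lens: *Slc7a1*, *Slc7a2*, *Slc7a3*, *Slc7a5*, *Slc7a6*, *Slc7a7*, *Slc7a8*, *Slc7a11*, *Slc3a2* and *Slc38a2*. These 10 were taken by symbol from a table of 56748 genes. *Slc7a2* was selected on its difference between mutant and control lenses in these same libraries, and the other 9 were added to it by family and function. Differences between the groups are therefore given as descriptions, and the count of members that differ is no evidence about them.

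Lenses were dissected from mice 10 to 12 days old, and polyA RNA was sequenced from 4 libraries, 2 per group. Mutant lenses came from Fsp1-cre;Pdgfrb+/D849V mice, which carry 1 conditional knock-in allele of the constitutively active PDGF receptor beta at its own locus. The allele is switched on by cre recombinase under the Fsp1 (S100a4) promoter, which is not specific to the lens. In lens epithelium the study describes strong activity of a cre reporter as early as week 4, after the age sampled here. The study assumes, and did not measure, expression of the mutant receptor there. Control libraries are labelled Fsp1-cre;Pdgfrb+/+, whereas the study's methods describe control pools that also held mice without cre, with or without the D849V allele. The line was bred to FVB/N and carried a Rosa-LSL-tdTomato reporter, and each library pooled lenses of several mice, so its value is an average over animals. P-values measure the spread between these pools. In bulk lens RNA, fewer cells of a type and less RNA per cell cannot be told apart.

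The libraries held 18561682 to 18878768 reads on genes. Crystallins, the structural proteins of the lens, took 58.6 to 62.9% of these reads. The fibre cell markers were present except *Lim2*, which was listed at 0 in all 4 libraries, and so were all 8 markers of the lens epithelium. *Xist*, transcribed from the inactive X chromosome of female cells, was at 7.62 and 13.1 FPKM in mutant 1 and mutant 2 and at 15.6 and 5.56 FPKM in control 1 and control 2. FPKM are fragments scaled to gene length and library depth. Mutant 1 and control 2 were thus the low *Xist* libraries, and they were also the libraries with the larger crystallin share, at 62.9% and 61.5% against 58.6% in mutant 2 and 59.0% in control 1. The labels do not give the sex of the pooled mice. *Xist* level and crystallin share differed within both groups. An *Xist* covariate and scaling to reads outside crystallins were among the alternative settings. Beyond these, their part in the values below was not tested.

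Amino acid transporters of the SLC7 family are of a cationic and a heterodimeric kind. The cationic transporters SLC7A1, SLC7A2 and SLC7A3 work on their own and carry arginine, lysine and ornithine into cells. The light chains SLC7A5, SLC7A6, SLC7A7, SLC7A8 and SLC7A11 reach the membrane only when bound to the heavy chain SLC3A2 (CD98), and they exchange 1 amino acid for another. The mature lens has no blood supply and takes up its amino acids from the aqueous humour. They serve protein synthesis in its epithelium and young fibres and the making of glutathione, its main antioxidant. The developing lens is also fed by hyaloid vessels, which by the study's account were largely but not fully regressed at the age sampled.

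The 10 genes spanned a wide range of levels. *Slc7a5*, which encodes the large neutral amino acid transporter LAT1, had the highest mean control level at 63.0 ± 3.09 FPKM (SD, n = 2). It was followed by *Slc3a2* at 47.5 ± 2.13 FPKM and by *Slc7a8* at 25.1 ± 3.30 FPKM. *Slc7a2* came next at 19.9 ± 2.70 FPKM, ahead of *Slc38a2* at 14.7 ± 0.631 FPKM. *Slc7a6*, *Slc7a1*, *Slc7a7* and *Slc7a11* lay lower, at 3.32 ± 0.651, 1.27 ± 0.0167, 0.550 ± 0.0320 and 0.469 ± 0.0735 FPKM. *Slc7a3* was last at 0.0694 ± 0.0171 FPKM. This order was the same in each of the 4 libraries, and for no neighbours in it did the ranges of the 2 control libraries overlap. The narrowest step was from *Slc7a7* to *Slc7a11*, a 1.17-fold difference in control means, and with 2 libraries per group no step was tested.

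**Figure D1:**
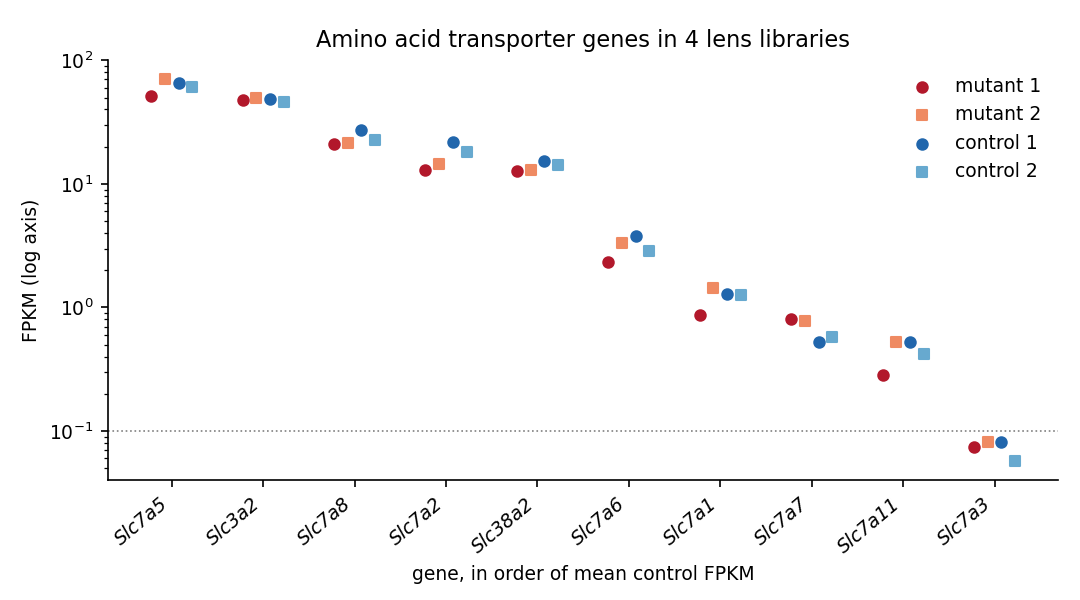
FPKM of the 10 transporter genes on a log axis, in order of mean control level, with 1 point per library (mutant 1 and 2 in red and orange, control 1 and 2 in dark and light blue). The dotted line is the mean of 0.1 FPKM needed for a gene to be tested. *Slc7a5* and *Slc3a2* lie highest, and *Slc7a3* lies under the line in every library.

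Among the cationic transporters, *Slc7a2* (ENSMUSG00000031596, chromosome 8, 41315433 to 41375345, plus strand) was the main transcript. CAT2, its product, supplies arginine to nitric oxide synthase and arginase in other tissues. *Slc7a2* stood at 13.1 FPKM in mutant 1 and 14.5 FPKM in mutant 2, from 2129 and 2601 reads. In control 1 and control 2 it stood at 21.8 and 18.0 FPKM, from 3879 and 3034 reads. Both mutant libraries lay below both control libraries. The means were 13.8 ± 1.04 FPKM in mutant and 19.9 ± 2.70 FPKM in control lenses (SD, n = 2 each). The log2 fold change was -0.52 ± 0.13 (SE) on the log2(FPKM + 0.1) scale, a level 0.697 times that of control. Leaving out each library in turn gave -0.66 to -0.38. This is the difference on which the gene was chosen, so no p is given for it.

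*Slc7a2* gives rise to transcripts with alternative versions of a coding exon, which distinguish the high affinity CAT2B from the low affinity CAT2A. Both versions are shown because the deposited values are sums over the whole gene and cannot tell them apart. In the GRCm38 annotation each is exon 7 of 2 of the 4 full coding transcripts. The first is 140 bases long (chr8:40908056-40908195, plus strand). The second is 137 bases long (chr8:40908398-40908534, plus strand). Aligned to each other, they are identical in 84 of 140 columns (60.0%), and capitals mark the bases that differ.
Slc7a2 alternative exon 1: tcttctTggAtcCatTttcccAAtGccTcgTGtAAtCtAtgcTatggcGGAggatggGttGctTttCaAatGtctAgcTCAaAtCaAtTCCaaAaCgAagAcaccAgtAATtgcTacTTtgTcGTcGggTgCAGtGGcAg
Slc7a2 alternative exon 2: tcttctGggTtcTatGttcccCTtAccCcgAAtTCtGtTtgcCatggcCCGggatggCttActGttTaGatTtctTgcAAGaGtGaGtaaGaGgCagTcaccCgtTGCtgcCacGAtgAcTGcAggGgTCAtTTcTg

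*Slc7a1* encodes CAT1, the cationic transporter found in most dividing cells. It was at 0.866 and 1.43 FPKM in the mutant libraries and 1.28 and 1.26 FPKM in the control libraries. Mutant 1 was the lowest and mutant 2 the highest, so the groups overlapped (log2 fold change -0.18 ± 0.25, adjusted p = 0.892). *Slc7a3*, which encodes CAT3, was close to undetected: it had 5 and 6 reads in mutant lenses and 6 and 4 reads in controls. The exact Poisson 95% interval was 2.20 to 13.1 reads for a count of 6 and 1.09 to 10.2 reads for a count of 4, covering counting error only. *Slc7a3* was the only member under the level needed for a test.

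Summed over the 3 genes, cationic transporter FPKM was 14.0 and 16.1 in mutant lenses and 23.2 and 19.3 in controls, and the groups did not overlap. *Slc7a2* made up 93.3 and 90.6% of this sum in mutant 1 and mutant 2. In control 1 and control 2 its share was 94.1 and 93.2%. The shares overlapped, with means of 92.0 ± 1.90% in mutant and 93.7 ± 0.658% in control lenses (SD, n = 2). *Slc7a2* was at 15.1 and 10.2 times the FPKM of *Slc7a1* in the mutant libraries and 17.0 and 14.3 times in the control libraries, again with overlap.

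*Slc3a2*, which encodes the heavy chain, was level across the libraries, at 47.4 and 49.3 FPKM in mutant lenses and 49.0 and 46.0 FPKM in controls. The groups overlapped. The log2 fold change was 0.03 ± 0.09 (adjusted p = 0.960), and it turned to -0.0040 when libraries were scaled to their total reads.

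Its light chains were led by *Slc7a5*. This gene was at 51.2 FPKM in mutant 1 and 70.5 FPKM in mutant 2, which were the lowest and the highest of the 4 libraries. The control libraries lay between them at 65.2 and 60.8 FPKM (log2 fold change -0.07 ± 0.17, adjusted p = 0.947). *Slc7a8* encodes LAT2, which exchanges small and large neutral amino acids. It was at 20.9 and 21.2 FPKM in mutant lenses, from 1863 and 2082 reads. Control lenses had 27.4 and 22.8 FPKM, from 2670 and 2101 reads. Both mutant libraries were below both control libraries, yet control 2 was closer to the mutant libraries than to control 1 (log2 fold change -0.25 ± 0.12, adjusted p = 0.811). Dropping libraries 1 by 1, it ran from -0.38 to -0.11.

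*Slc7a6* encodes y+LAT2, which exports cationic for neutral amino acids. It was at 2.33 and 3.33 FPKM in mutant lenses, against 3.78 and 2.86 FPKM in controls. The groups overlapped, with a log2 fold change of -0.23 ± 0.23 (adjusted p = 0.832).

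*Slc7a7* encodes y+LAT1, the related exchanger of intestine, kidney and macrophages. It was the only tested member whose mutant libraries both lay above both controls. Mutant 1 and mutant 2 had 0.812 and 0.770 FPKM, from 48 and 50 reads. Control 1 and control 2 had 0.527 and 0.573 FPKM, from 34 and 35 reads. The log2 fold change of 0.46 ± 0.19 did not pass the test (adjusted p = 0.806), and it ran from 0.21 with a pseudocount of 1 to 0.52 with voom on the recovered reads.

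Macrophage markers moved with *Slc7a7*. All 12 markers of the list had a higher mean in mutant lenses, and both mutant libraries lay above both controls for 9 of them. Only 6 of the 12 reached the level needed for a test, and these 6 were all among the 9; of all genes tested, 18.2% had both mutant libraries above both controls. Their summed level was 3.86 and 3.48 FPKM in mutant lenses and 1.15 and 0.771 FPKM in controls, from 87 and 99 against 36 and 28 reads. None of the 12 was at 0 in all libraries, but the defining marker *Adgre1* had 1 read in each mutant library and 0 in each control library. The part of macrophage RNA in the *Slc7a7* values was not tested. *Slc7a7* (chromosome 14, 54606899 to 54655237) also shares 232 bp with *Oxa1l* on the other strand. *Oxa1l* had 207 and 276 reads in mutant and 208 and 201 in control lenses (log2 fold change 0.24, adjusted p = 0.811). The strand setting of the counting is not given in the sources used here, so reads in the shared stretch cannot be told apart.

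*Slc7a11* encodes xCT, which imports cystine in exchange for glutamate and so feeds glutathione synthesis. It was at 0.286 FPKM in mutant 1 and 0.521 FPKM in mutant 2, from 71 and 142 reads. The controls had 0.521 and 0.417 FPKM, from 141 and 107 reads. Mutant 1 stood apart below the other libraries, and the groups overlapped (log2 fold change -0.21 ± 0.33, adjusted p = 0.902). The 5 annotated genes that overlap it had 0 reads in all libraries.

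*Slc7a11* is a known target of ATF4, the transcription factor of the amino acid response, and its upstream sequence is shown because it holds the ATF4 type motif on both strands. The 250 bases before its start come from RefSeq on GRCm38.p6 (chr3:50443614-50443863, minus strand), and capitals mark TGATGCAA or its reverse complement.
Slc7a11 upstream: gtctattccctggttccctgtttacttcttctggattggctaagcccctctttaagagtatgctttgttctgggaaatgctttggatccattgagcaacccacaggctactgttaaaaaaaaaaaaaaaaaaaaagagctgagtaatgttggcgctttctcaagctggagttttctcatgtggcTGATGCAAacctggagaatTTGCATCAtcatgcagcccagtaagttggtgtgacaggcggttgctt
This motif of 8 bases was searched on both strands of windows from 250 bases before to 50 bases after a start. Of 32851 such promoters, 294 (0.895%) held it, and 2 (0.0061%) held it more than once, the *Slc7a11* promoter among them. Of the 7 members with a promoter in the RefSeq table, *Slc7a11* and *Slc7a7* held a match. The *Slc7a7* match lies in 1 of its 5 annotated promoters (chr14:54417927-54417952, minus strand) and is shown with its flanks beside those of *Chac1* (chr2:119351038-119351067, plus strand) and *Nupr1* (chr7:126625562-126625591, minus strand). These are the amino acid response genes with a match that had the largest log2 fold change and the highest level, and they and the others with a match were named after their values were seen.
Slc7a7 upstream window: tagaagcTGATGCAAcagcttccccg
Chac1 upstream window: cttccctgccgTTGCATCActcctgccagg
Nupr1 upstream window: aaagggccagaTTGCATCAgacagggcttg
Of 26 amino acid response genes with a promoter in the table, 6 (23.1%) held the motif in at least 1 promoter. This share counts genes, whereas 0.895% counts promoters, and the list was made of genes of the ATF4 response, so the shares cannot be compared. The 6 were *Atf3*, *Chac1*, *Got1*, *Nupr1*, *Pycr1* and *Vldlr*, and they did not move together. Both mutant libraries lay above both controls for *Atf3* and *Chac1*, with log2 fold changes of 0.72 and 1.44. The groups overlapped for *Nupr1* at 0.11, *Vldlr* at -0.04, *Got1* at -0.18 and *Pycr1* at -0.33, and none of the 6 passed the test. Of the members with a match, *Slc7a7* was higher in both mutant libraries and *Slc7a11* overlapped. A match describes these letters only.

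Light chain FPKM, summed over the 5 genes and *Slc7a10*, a further light chain of SLC3A2, was 75.6 and 96.6 in mutant lenses and 97.6 and 87.6 in controls. *Slc7a5* made up 67.7 and 73.0% of it in mutant and 66.8 and 69.5% in control lenses. *Slc7a8* made up 27.6 and 22.0% in mutant and 28.1 and 26.0% in control lenses. The heavy chain stood at 0.627 and 0.511 times the light chain sum in the mutant libraries and at 0.502 and 0.525 times in the control libraries. Neither the shares nor this ratio parted the groups, and mutant 1 had the highest ratio, with the lowest *Slc7a5* level.

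*Slc38a2* encodes SNAT2, a sodium-coupled importer of small neutral amino acids whose transcript rises in cells short of amino acids. It was at 12.8 and 13.1 FPKM in mutant lenses, from 2011 and 2262 reads. Control lenses had 15.2 and 14.3 FPKM, from 2608 and 2327 reads. The mutant libraries were both lower (log2 fold change -0.19 ± 0.09, adjusted p = 0.811). Dropping libraries 1 by 1, the value stayed between -0.23 and -0.14.

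Of the 9 members tested, 7 had a lower and 2 a higher mean log2 level in mutant lenses. Among all 15997 genes tested, 49.3% were lower. The members' median log2 fold change was -0.19, against 0.0041 over all genes. Without *Slc7a2*, selected for this difference, 6 of 8 were lower and the median was -0.18. Both mutant libraries lay below both controls for *Slc7a2*, *Slc7a8* and *Slc38a2*, as for 18.3% of all genes, and above them for *Slc7a7*, as for 18.2%. The marker lists of cell types went both ways. Of 10 endothelium markers, 9 had a lower level in the mutant (median -0.38 on the log2 scale), 3 of them without overlap. Of the 8 lens epithelium markers, 6 were lower, with a median of -0.05 and 2 without overlap, *Pdgfra* at -0.28 and *Cdh2* at -0.29. Mean FPKM was higher in the mutant for 8 and lower for 1 of 10 mural and fibroblast markers. For 8 retina markers these counts were 7 and 1, and for 10 fibre markers 5 and 4. For 7 erythroid markers they were 0 and 5, and for 6 pigment epithelium and ciliary body markers 2 and 3. All 12 macrophage markers were higher. No marker of these lists passed the test, and their part in the transporter levels was not tested. No member passed limma's test at an adjusted p under 0.05, which 6 genes (0.0375%) passed. The study's own test on counts, with DESeq2, did call *Slc7a2* as lower in mutant lenses. Apart from *Slc7a2*, which was chosen on this contrast, 0 of the 8 other members tested had an unadjusted p under 0.05, and 6.31% of all genes had. Voom on the recovered reads called no member either. Its unadjusted p was under 0.05 for 2 of the 9 members and for 1189 of all 15997 genes. The 9 include *Slc7a2*, chosen on this difference, so these counts cannot be compared. An exact two-sided permutation test of 2 against 2 libraries cannot give a p below 0.333.

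The direction of several members rested on mutant 1. Without that library only 3 of the 9 were lower, namely *Slc7a2*, *Slc7a8* and *Slc38a2*. Without mutant 1, *Slc7a1* went from -0.18 to 0.15, *Slc7a5* from -0.07 to 0.16, *Slc7a6* from -0.23 to 0.02 and *Slc7a11* from -0.21 to 0.13 on the log2 scale. The other settings tried left 6 to 8 members lower, out of a number tested that changed with the filter. At a mean of at least 1 FPKM *Slc7a7* and *Slc7a11* were not tested, and without a filter *Slc7a3* was.

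**Figure D2:**
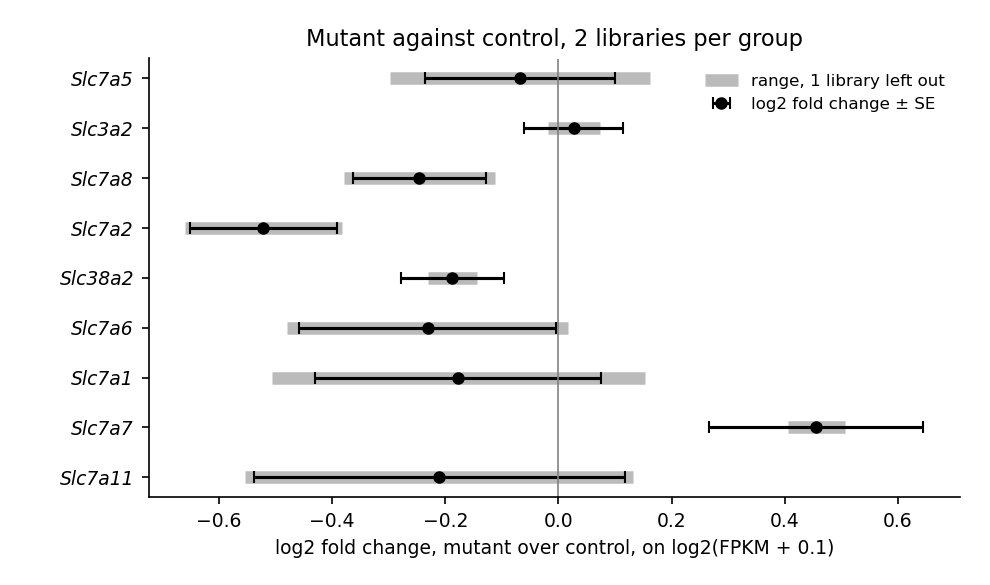
Log2 fold change of mutant over control (x axis, on log2(FPKM + 0.1)) for the 9 members tested, in order of control level. Points and bars give the estimate ± SE from limma, and grey bands the range when libraries are left out 1 by 1. The bands of *Slc7a2*, *Slc7a8*, *Slc38a2* and *Slc7a7* keep to 1 side of 0, as they must where the groups do not overlap. Those of *Slc7a5*, *Slc3a2*, *Slc7a6*, *Slc7a1* and *Slc7a11* cross it.

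The members also differed between libraries of the same group. Mutant 1 was below mutant 2, and control 2 below control 1, for 9 of the 10 members, and *Slc7a7* had the opposite order in both groups. Among the genes tested the figures were 8 of 9 members and 25.1% of all genes. The difference of mutant 1 from mutant 2 was -0.69 for *Slc7a11*, -0.66 for *Slc7a1*, -0.50 for *Slc7a6* and -0.46 for *Slc7a5* on the log2 scale, each larger than the gene's difference between mutant and control. For *Slc7a2* it was -0.15, and control 2 differed from control 1 by -0.28. Mutant 1 and control 2 were the libraries with less *Xist* and a larger crystallin share. They also had the smaller summed level of retina markers, at 0.343 and 0.467 FPKM against 2.90 in mutant 2 and 1.14 in control 1. Of the 8 lens epithelium markers, 5 were lower and 0 higher in both mutant 1 and control 2 than in the other library of their group. Their summed reads had this order too, with 7793 and 10180 in mutant 1 and mutant 2 and 10539 and 9339 in control 1 and control 2. Their summed FPKM, most of it from *Foxe3*, had it only in the mutant group, at 158 and 187 FPKM against 178 and 183 FPKM in control 1 and control 2. Beyond the *Xist* covariate and the scaling to reads outside crystallins, the part of these differences in the members' levels was not tested. Mutant 1 was compared with control 2, the low *Xist* libraries, and mutant 2 with control 1, the high ones. Both times *Slc7a6* was lower in the mutant. *Slc3a2* was only slightly higher in it, at 47.45 against 45.98 FPKM and 49.3 against 48.99 FPKM. *Slc7a2*, *Slc7a8* and *Slc38a2* were also lower and *Slc7a7* higher both times, which is fixed in advance where the groups do not overlap. *Slc7a1* and *Slc7a5* were lower in the first comparison and higher in the second. *Slc7a11* was lower in the first, and in the second both libraries stood at 0.521 FPKM.

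**Figure D3:**
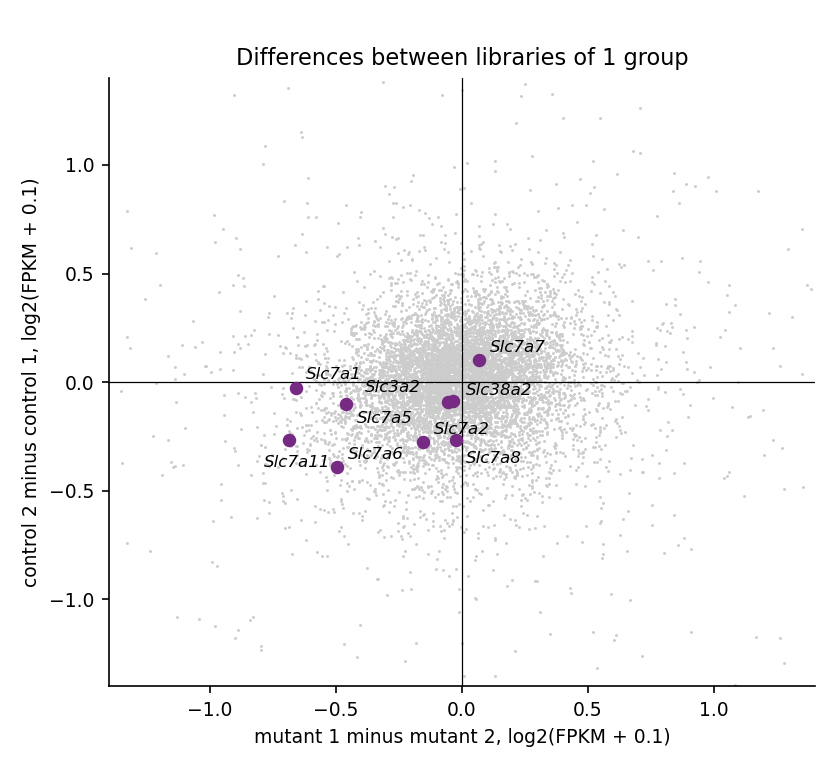
Differences between libraries of the same group, mutant 1 minus mutant 2 on the x axis and control 2 minus control 1 on the y axis, in log2(FPKM + 0.1). Grey points are 8375 tested genes with a mean of at least 1 FPKM, 128 of which lie outside the axes, and purple points are the 9 members tested. The members other than *Slc7a7* all lie left of and below 0.

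The other genes of amino acid transport and use were described from 6 lists, and none of their genes passed the test. Of 33 other plasma membrane transporters, 15 were tested, with 9 lower and 6 higher in mutant lenses and a median log2 fold change of -0.12. The highest among them were *Slc1a4*, a neutral amino acid exchanger, and *Slc6a6*, the taurine transporter, with log2 fold changes of -0.20 and -0.17 (adjusted p = 0.811 and 0.812). *Slc7a4*, an orphan relative of the cationic transporters, had a log2 fold change of -0.28 (adjusted p = 0.811). *Slc1a5*, the glutamine exchanger ASCT2, was chosen after its values were seen. It was at 0.780 and 0.710 FPKM in mutant lenses and 1.05 and 1.30 FPKM in controls, without overlap (log2 fold change -0.59 ± 0.19, adjusted p = 0.749). Among 13 tested transporters of organelle membranes, 8 were higher and 5 lower, with a median of 0.0029. *Slc25a13* and *Slc25a12*, the mitochondrial aspartate and glutamate carriers, had log2 fold changes of 0.33 and 0.19 (adjusted p = 0.805 and 0.811).

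Arginine and ornithine carried by the cationic transporters enter the urea cycle enzymes, creatine and polyamine synthesis. Of the 26 genes of that list, 20 were tested, with 10 higher and 10 lower and a median of -0.01. *Odc1*, ornithine decarboxylase and the first step of polyamine synthesis, had the lowest log2 fold change of the list. It was at 11.8 and 15.1 FPKM in mutant lenses, from 718 and 1003 reads. Control lenses had 18.7 and 18.8 FPKM, from 1236 and 1177 reads. Its log2 fold change of -0.48 ± 0.14 was close in size to that of *Slc7a2* and did not pass the test (adjusted p = 0.706). *Ass1*, argininosuccinate synthase, was at 36.5 and 36.8 FPKM in mutant and 41.5 and 41.1 FPKM in control lenses (log2 fold change -0.17, adjusted p = 0.809). *Oaz1*, the antizyme that marks ornithine decarboxylase for degradation, was highest of the list with a log2 fold change of -0.13.

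The amino acid response, in which ATF4 raises transporters and biosynthetic enzymes when amino acids run short, was read from 28 genes. All were tested, with 16 higher and 12 lower and a median of 0.03. *Atf4* was at 73.0 and 62.2 FPKM in mutant and 57.4 and 58.8 FPKM in control lenses (log2 fold change 0.21, adjusted p = 0.811). *Atf5*, a related factor, was at 32.4 and 34.9 against 27.4 and 28.6 FPKM (log2 fold change 0.26, adjusted p = 0.769). The groups of both genes did not overlap. *Chac1*, which degrades glutathione, was chosen after its values were seen. It had 40 and 21 reads in mutant and 10 and 8 reads in control lenses, or 1.37 and 0.655 against 0.314 and 0.265 FPKM (log2 fold change 1.44 ± 0.37, adjusted p = 0.681). The transporter members that belong to this response in other cells, *Slc7a5*, *Slc7a11*, *Slc3a2* and *Slc38a2*, had log2 fold changes of -0.07, -0.21, 0.03 and -0.19 in the same libraries. The enzymes *Aldh18a1* and *Shmt2*, of proline and serine metabolism, were at -0.15 and -0.08.

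**Figure D4:**
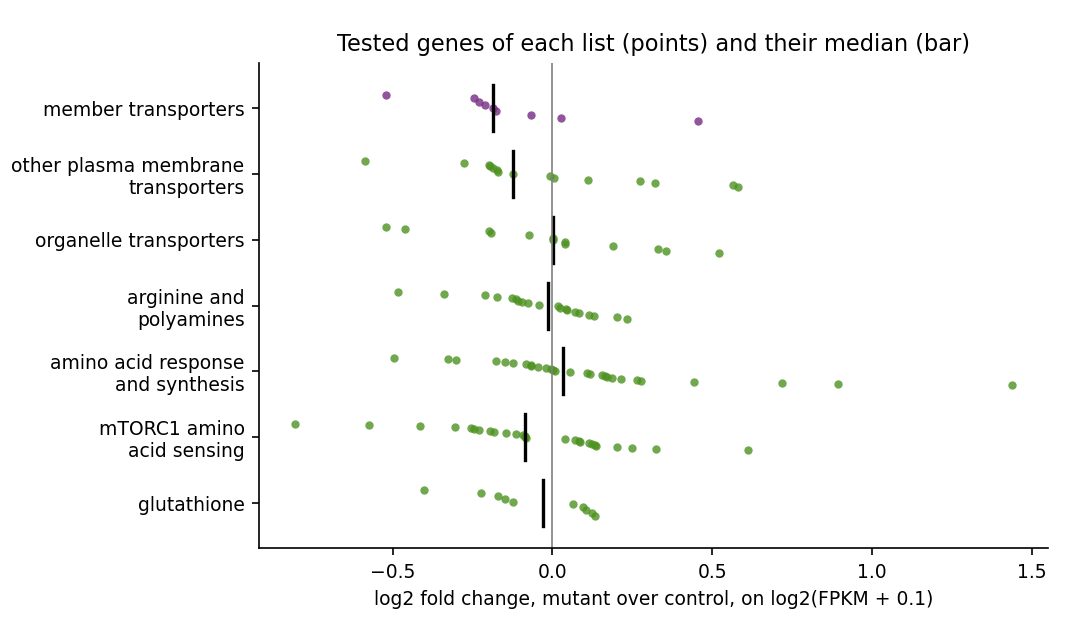
Log2 fold change of mutant over control (x axis) for each tested gene of the members and of the 6 lists, with 1 point per gene and a black bar at each list's median. The medians run from -0.19 for the members to 0.03 for the amino acid response, and no gene shown passed the adjusted test.

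**Figure D5:**
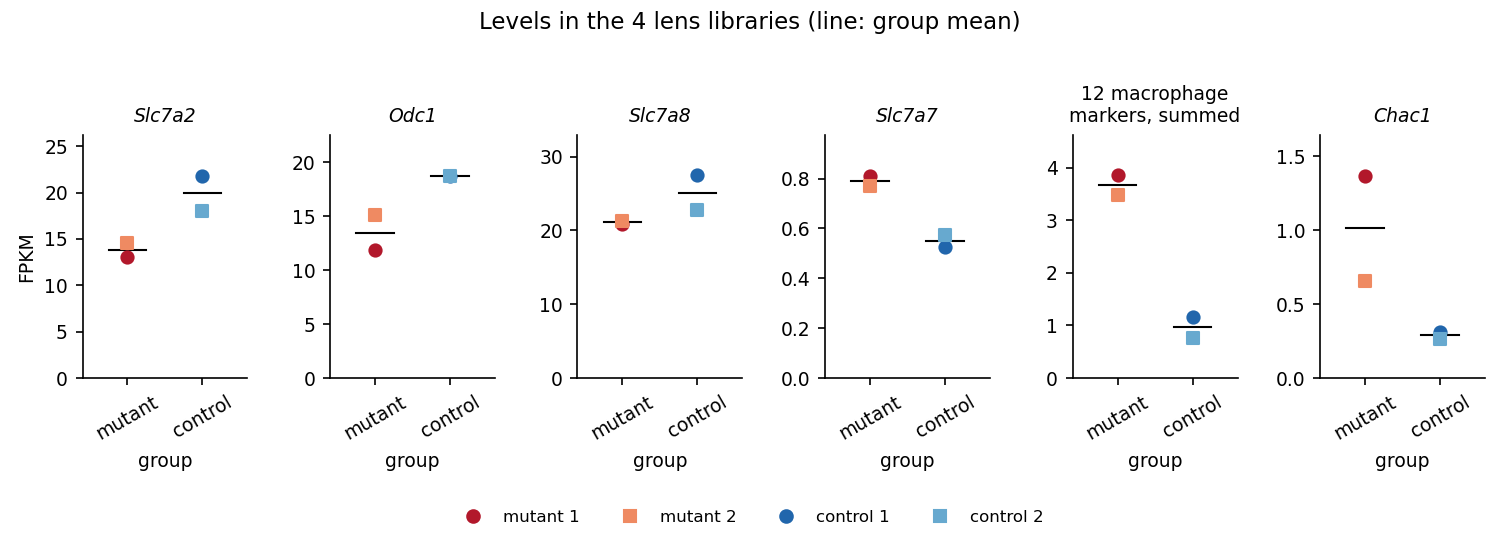
FPKM in each library (y axes from 0) for *Slc7a2*, *Odc1*, *Slc7a8*, *Slc7a7*, the summed macrophage markers and *Chac1*, with a line at each group mean of 2 libraries. The mutant points lie below the control points for *Slc7a2*, *Odc1* and *Slc7a8*, and above them in the other panels.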

How the data were processed

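Lens RNA was sequenced in 4 libraries, and the authors' provider used HISAT2 for alignment, featureCounts for counting and DESeq2 for tests. The deposited table holds FPKM, per the labels on mm39, for 56748 genes with their lengths, and gene positions are those of the table. Libraries were grouped by genotype label, and mutant was compared with control. The members and lists were chosen with earlier results of these data known. Genes with a mean of at least 0.1 FPKM (15997) were tested on log2(FPKM + 0.1), where fold changes of low genes are understated, with limma 3.58.1 (lmFit and eBayes with a trend, R 4.3.3) and Benjamini-Hochberg adjustment at 0.05. The table holds no counts, so a count model was not the main test. FPKM times length gave whole reads for 100.0% of values above 0 (tolerance 0.1), and limma's voom on these reads was an alternative. Other alternatives were pseudocounts of 0.01 and 1, other filters, no trend, scaling to total reads or to reads outside crystallins, the replicate number as a block, an *Xist* covariate and leaving out each library. The code was tested on simulated data. Named were all members, and of each list genes with an adjusted p under 0.05, at most 3 per direction with the largest non-overlapping change at 1 FPKM or more, and the 2 with the highest level, of which some are printed. Words of 31 bases shared with other genes made up 0 to 4.15% of each member's exons (GENCODE M21, GRCm38). Promoters were read from RefSeq (GRCm38.p6). *Slc7a2*, *Slc7a3* and *Slc7a5* had no entry.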

Additional observations from a re-analysis of the deposited data

How the results depend on the processing

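With 2 libraries per group, genes under 1 FPKM rest on few reads, and changes of the size of most members could not be called. The 6 genes called among all genes became 2 with a pseudocount of 1, 2 with a pseudocount of 0.01, 2 at a mean of at least 1 FPKM, 2 without the trend, 1 without a filter, 1 with the *Xist* covariate and 14 with voom on the recovered reads. With the replicate block 3 were called. The replicate numbers do not pair the samples (correlation of the differences between replicates over genes, mutant with control, -0.005), and the block called no member. Leaving out each library in turn gave 0 to 0 calls (limma, 787 to 1465 genes at an unadjusted p under 0.05). A lone library was then assumed to vary like the other group. *Slc7a2* ran from -0.66 to -0.38 with a library left out and from -0.55 to -0.49 under the other settings. Members lower numbered 3 to 8 with a library left out, with 3 without mutant 1. *Slc3a2* changed sign in 3 of its 14 alternatives, and *Slc7a2*, *Slc7a8* and *Slc38a2* in 0. For these last genes the groups do not overlap, so leaving out a library could not change the sign, and *Slc7a2* was chosen on this difference.

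List medians lay near 0 and several moved. With a library left out they ran from -0.224 to 0.0247 for other plasma membrane transporters, -0.0209 to 0.0416 for organelle transporters, -0.0611 to -0.0215 for arginine and polyamines, 0.0107 to 0.048 for the amino acid response, -0.168 to 0.0176 for mTORC1 sensing and -0.134 to 0.0152 for glutathione. Without a filter the medians were 0.0378 for organelle transporters, 0.0204 for arginine and polyamines and 0.0093 for glutathione. At a mean of at least 1 FPKM they were -0.0429 for arginine and polyamines, -0.0122 for the amino acid response, 0.0761 for mTORC1 sensing and -0.123 for glutathione. Scaled to total reads they were -0.0429 for arginine and polyamines and 0.00094 for the amino acid response. The cause was not tested.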

Other observations

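Amino acids that enter through the light chains are sensed by the mTORC1 pathway, which couples their supply to growth. Of its 27 genes, 15 were lower and 12 higher in the mutant (median log2 fold change -0.09), and none passed the test. *Lamtor5*, a subunit of the lysosomal Ragulator scaffold, was at 15.1 and 13.5 FPKM in mutant and 9.19 and 9.39 FPKM in control lenses. The groups lay apart, with a log2 fold change of 0.61 ± 0.10 (adjusted p = 0.362). The other Ragulator subunits did not move with it: *Lamtor1*, *Lamtor3* and *Lamtor4* had log2 fold changes of -0.23, -0.18 and -0.15, and *Lamtor2* of 0.12. Of these only *Lamtor1* had groups without overlap. *Rheb*, the GTPase that activates mTORC1, had a log2 fold change of 0.33 (adjusted p = 0.769), and *Sesn3*, a sestrin that restrains it, of -0.30 (adjusted p = 0.783).

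Glutathione genes were read because cystine taken up by SLC7A11 feeds their pathway. Of 10 genes tested, 5 were higher and 5 lower, with a median of -0.03. *Keap1*, which holds the antioxidant factor NRF2 in check, was at 2.49 and 2.81 FPKM in mutant and 3.28 and 3.79 FPKM in control lenses (log2 fold change -0.40 ± 0.14, adjusted p = 0.769). *Gclm*, the modifier subunit of the first enzyme of synthesis, had a log2 fold change of -0.15, and *Gpx4*, the peroxidase for membrane lipids, of 0.13 (adjusted p = 0.811 for both).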
